A study of Homo sapiens with 9 samples.

Results

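The genes RAG1, RAG2, PTCRA and DNTT, which act in the assembly and first testing of antigen receptors, were examined in peak lists of FAIRE-seq (formaldehyde-assisted isolation of regulatory elements with sequencing), an assay that enriches DNA free of nucleosomes. Peaks of 4 lists that overlapped or touched were joined into merged regions. A merged region was assigned to a gene when it overlapped the gene body or lay within 50 kb of the transcription start site (TSS). This rule, which uses position alone, gave 13 distinct regions of 40703 on the autosomes, X and Y. RAG2 had 6 of them, DNTT 4, PTCRA 3 and RAG1 2, of which both also counted for RAG2. A merged region at a gene is a place where a peak was called in at least 1 library, and it is no measure of the gene's transcription.

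RAG1 and RAG2 form the recombinase that cuts DNA beside the V, D and J segments of antigen receptor genes. RAG1 carries the catalytic site, and RAG2 is its essential partner, which reads histone methylation. DNTT encodes terminal deoxynucleotidyl transferase, a polymerase that adds nucleotides without a template at the cut ends before they are joined. PTCRA encodes the pre-T alpha chain, which pairs with a newly made T cell receptor beta chain so that a thymocyte with a working beta chain can go on. All of them are hallmarks of immature lymphocytes and are generally shut down in mature T cells. Jurkat, the line used here, is a T cell leukaemia line with a rearranged receptor on its surface.

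The cells were Jurkat clone E6-1, a single clone, and the labels place the 4 lists in 2 states of a transcriptional memory model. NS cells were not stimulated. SW cells were given 24 ng/mL PMA, which activates protein kinase C, with 1 µM calcium ionophore for 4 h by the labels, washed, and rested for 1 day. The study's methods give a shorter stimulation, and which time holds for these libraries is not known. All cells had first been given DMSO, the vehicle, or 15 µM rottlerin, a kinase inhibitor, for 1 h. The 4 lists carry the labels NS DMSO, SW DMSO, NS rottlerin and SW rottlerin, with 1 library each, and the other 5 of the 9 samples, including the total input, a mixture of DNA from unstimulated and stimulated cells, were not analysed here. The study's methods describe peak calling and joining only for the DMSO libraries of the NS, ST (stimulated), SW and RS (restimulated) states. Joining all peaks of the 4 lists gave 40731 regions, and the same total stands in those methods for the DMSO libraries. The NS DMSO label is compatible with both sources but was not tested against the data, and every comparison with that list rests on it. Which state each of the other 3 lists describes cannot be told apart from these sources. Each of them is therefore called by its label, and no direction is drawn for stimulus withdrawal or for rottlerin.

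The lists held 18977 peaks (NS DMSO), 20132 (SW DMSO), 23835 (NS rottlerin) and 30409 (SW rottlerin), with a median fold enrichment over total input between 4.03 and 4.08. The lists do not give sequencing depth, so the absence of a peak means only that none was called in that library. With 1 library a list there is no spread between replicates to set a difference against, and no test and no p-value is given. Among marker genes, a region from any list lay within 1 kb of the TSS at 6 of 7 T cell markers, with CD2 the exception. The counts were 0 of 5 for B cell markers and 0 of 4 for myeloid markers, where 45% of 20098 protein-coding genes on the autosomes and X had one. By single list, 5 (NS DMSO), 4 (SW DMSO), 3 (NS rottlerin) and 5 (SW rottlerin) of the 7 T cell markers had a TSS peak. At the canonical TSS, 5 of the 7 had a region. CD3D, CD3E and CD28 had a TSS peak in every list, as did 30.5% of protein-coding genes.

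The 3 regions whose position and lists the results turn on most are shown first, each as the central 300 bp of the merged region on the plus strand of GRCh37. Capitals mark matches, on either strand, to any of 10 short sequences bound by lymphoid factors. Those found in these windows are both E-boxes, CAGCTG for one and CACCTG for the other, which E proteins bind, the RUNX sequence TGTGGT, the ETS sequence AGGAAG and the core TGGGAA shared by Ikaros and RBPJ. The others searched were AGATAA for the GATA factors, CTTTGA for TCF7 and LEF1, CAACTG for MYB, TGANTCA for AP1 and TGGAAA for NFAT.
DNTT, 4.74 kb before the TSS, chr10:98059282-98059581: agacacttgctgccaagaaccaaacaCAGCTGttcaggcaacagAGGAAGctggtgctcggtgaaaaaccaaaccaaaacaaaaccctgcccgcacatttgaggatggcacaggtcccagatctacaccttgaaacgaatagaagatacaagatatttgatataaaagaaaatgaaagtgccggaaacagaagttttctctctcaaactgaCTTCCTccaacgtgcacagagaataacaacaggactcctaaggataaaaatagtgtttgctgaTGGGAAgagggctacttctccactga
DNTT, intron, 2.39 kb after the TSS, chr10:98066402-98066701: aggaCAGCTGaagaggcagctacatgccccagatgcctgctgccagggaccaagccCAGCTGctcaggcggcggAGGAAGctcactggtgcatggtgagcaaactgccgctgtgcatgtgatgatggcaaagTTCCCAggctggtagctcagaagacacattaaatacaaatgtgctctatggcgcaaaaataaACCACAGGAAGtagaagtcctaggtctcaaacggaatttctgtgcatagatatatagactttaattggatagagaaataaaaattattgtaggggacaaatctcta
RAG1, 1.13 kb before the canonical TSS, chr11:36588273-36588572: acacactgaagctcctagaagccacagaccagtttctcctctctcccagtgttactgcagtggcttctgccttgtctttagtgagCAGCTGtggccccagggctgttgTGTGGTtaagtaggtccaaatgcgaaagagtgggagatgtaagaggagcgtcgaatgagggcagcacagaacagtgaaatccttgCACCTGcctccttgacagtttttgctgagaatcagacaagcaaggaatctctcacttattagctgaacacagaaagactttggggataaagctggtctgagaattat

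The RAG2 TSS region is shown from the base before the gene to its far end, 120 bases on the minus strand (RAG2 is transcribed from the minus strand), because it is the only region of the 13 that lies at the start of one of these genes. None of the 10 sequences was found in it, or in the central 300 bp of the merged region.
RAG2, upstream part of the TSS region, chr11:36619830-36619949: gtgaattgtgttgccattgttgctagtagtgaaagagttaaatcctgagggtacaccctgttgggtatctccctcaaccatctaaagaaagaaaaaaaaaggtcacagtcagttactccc

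Across the lists, 9 of the 13 regions had an NS DMSO peak, where 46.5% of all merged regions had one. SW DMSO peaks were found in 4 of the 13 (49.3% of all regions), NS rottlerin peaks in 4 (58.4%) and SW rottlerin peaks in 5 (74.5%). The NS DMSO list, the shortest of the 4, thus held the most peaks at these genes, and the SW rottlerin list, the longest, held 5. Of the 13, 4 had no NS DMSO peak, where 53.5% (95% Wilson interval 53 to 54, counting error alone) of all regions lacked one. Another 4 were found in the NS DMSO list alone, against 7.83% of all regions, and 1 was found in every list, against 26.6%. In all, 7 regions were found in 1 list, 4 in 2 lists and 1 in 3 lists. By locus, all 4 DNTT regions, 4 of the 6 at the RAG locus and 1 of the 3 at PTCRA had an NS DMSO peak. With so few regions, the RAG locus and PTCRA counts are not far from the 46.5% over all regions. At the RAG locus and DNTT together, 8 of 10 regions had an NS DMSO peak. This grouping leaves out PTCRA, which had the lowest share, and is given as a description.

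**Figure D1:**
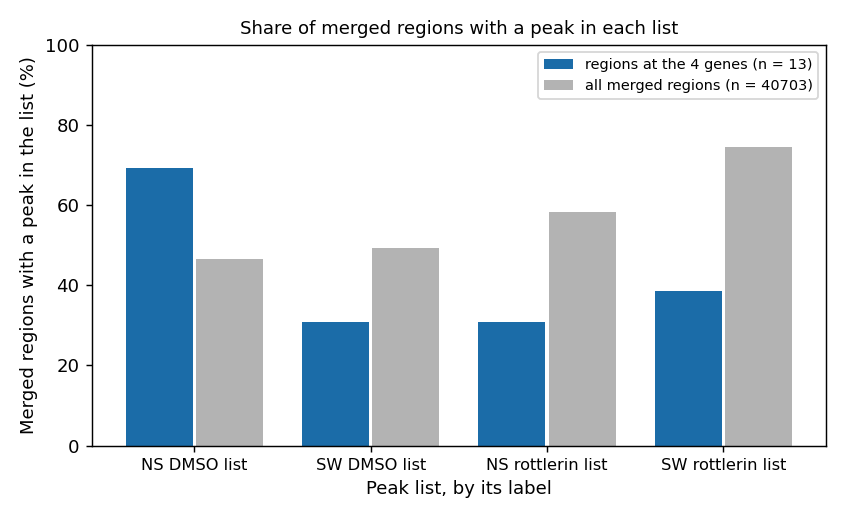
Share of merged regions with a peak in each list, in percent, for the 13 regions at the 4 genes (blue bars) and all 40703 merged regions (grey bars). At the 4 genes the NS DMSO bar (9 of 13) is the tallest, while over all regions the bars rise from 46.5% in the NS DMSO list to 74.5% in the SW rottlerin list.

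RAG1 and RAG2 lie on chromosome 11 and are transcribed toward each other. The RAG1 gene record runs from 36531922 to 36614706 on the plus strand and includes long transcripts that begin 57.6 kb before the canonical TSS at 36589557. RAG2 runs from 36597124 to 36619829 on the minus strand. The canonical RAG1 TSS itself had no peak within 1 kb in any list. The nearest region, at 36588331 to 36588515, lay 1.13 kb before it, in an intron of the longer RAG1 transcripts. Its nearer edge is 1042 bp from that TSS, just outside the 1 kb used to call a TSS region. It was found in the NS DMSO list alone, with a fold enrichment of 4.23 and a score of 61 (a whole-number score that the peak caller derives from the q-value, 10 times its −log10 rounded down). That fold enrichment is higher than 57.2% of the peaks in its list. Further out, 3.47 kb before the canonical TSS, a region at 36586003 to 36586163 was found in the SW rottlerin list alone, with a fold enrichment of 3.97 and a score of 44. The 2 regions near RAG1 therefore came from different lists, and neither was seen in a second one.

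At RAG2, the region from 36619678 to 36619949 covered the TSS and overlapped the 5′UTR exon. It also lies inside the body of IFTAP, the neighbouring gene. The NS DMSO peak, from 36619678 to 36619946, had a fold enrichment of 4.12 and a score of 50, and the SW rottlerin peak, from 36619744 to 36619949, had 3.85 and a score of 40. Neither the SW DMSO nor the NS rottlerin list had a peak there. The far ends of both peaks lay within 3 bases of each other, and the SW rottlerin peak was shorter at the gene side (206 bp against 269 bp).

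A further 3 regions lay before RAG2, all in introns of IFTAP. The nearest, 7.66 kb before the RAG2 TSS at 36627392 to 36627583, was found in the NS rottlerin list alone, with a fold enrichment of 3.6 and a score of 27. The next, 22.2 kb before it at 36641727 to 36642325, was found in the NS DMSO list alone. Its fold enrichment was 3.12, its score was 12 and its q-value was 0.0595, the least certain of the peaks at these genes. The farthest, 24.4 kb before the TSS at 36643924 to 36644599, had peaks in the NS DMSO list (2.89, score 16) and the SW DMSO list (2.76, score 13). These last 2 regions were wide and weak. The NS DMSO peaks spanned 599 and 676 bp, where the median of that list was 265 bp, and their fold enrichment was higher than only 9.42% and 3.7% of its peaks. In the central 300 bp their GC content was 30.7% and 31.7%, where the median of all regions was 46.3% and 1.52% and 2.25% of regions had less.

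DNTT, on chromosome 10 from 98064166 to 98098321 on the plus strand, had 4 regions, each with an NS DMSO peak and none with an SW rottlerin peak. No region lay within 1 kb of the TSS. The strongest, 2.39 kb after the TSS at 98066382 to 98066722, lies in a DNTT intron and overlaps an exon of the lncRNA ENSG00000229418. Its fold enrichment was 4.99 in the NS DMSO list (score 65), 3.46 in the SW DMSO list (score 21) and 5.39 in the NS rottlerin list (score 78). The SW DMSO value is the low one of the 3, and its peak was also the shortest, at 165 bp against 341 and 212 bp. The 4.99 and 5.39 are higher than 78.9% and 85.2% of the peaks in their lists, and the 3.46 than 24.1%.

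The region 4.74 kb before the DNTT TSS, at 98059285 to 98059578, had a fold enrichment of 4.11 in the NS DMSO list (score 59) and 3.75 in the NS rottlerin list (score 40). It lies in the body of the same lncRNA, outside its exons. The other 2 regions, both intronic, were found in the NS DMSO list alone. At 9.17 kb after the TSS (98073246 to 98073422) the fold enrichment was 4.48 with a score of 53, and at 28.9 kb after it (98092942 to 98093115) it was 3.42 with a score of 48. By list, then, DNTT had 4 peaks in the NS DMSO list, 2 in the NS rottlerin list, 1 in the SW DMSO list and 0 in the SW rottlerin list. Of 14576 protein-coding genes with an NS DMSO peak in the same window, 2.88% likewise had no SW rottlerin peak. Of 8171 with at least 4 regions, 6.03% had an NS DMSO peak in every region. Both of these counts were chosen after the DNTT values were seen, and they are given as descriptions.

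PTCRA, on chromosome 6 from 42883727 to 42893576 on the plus strand, had no peak at its TSS, in its body or within 10 kb of its TSS in any of the 4 lists. All 3 regions in its window lay at the starts of other genes. The region 13.5 kb after the PTCRA TSS, at 42896380 to 42898107, covers the start of CNPY3, which encodes a chaperone of Toll-like receptors. It was the only one of the 13 found in every list, and it had the highest fold enrichment of the member regions in each list but NS rottlerin, where the DNTT intron region was higher (5.39 against 5.34). Its fold enrichment was 5.97 in the NS DMSO list, 5.46 in SW DMSO, 5.34 in NS rottlerin and 5.97 in SW rottlerin, with scores of 200, 156, 149 and 175. The region 36.1 kb before PTCRA, at 42847232 to 42847952, covers the start of RPL7L1, a gene related to a ribosomal protein. It had weak peaks in the SW DMSO list (2.75, score 20) and the SW rottlerin list (2.92, score 26). The region 25.1 kb before PTCRA, at 42858524 to 42858717, covers the start of C6orf226 and was found in the SW rottlerin list alone (3.81, score 61).

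**Figure D2:**
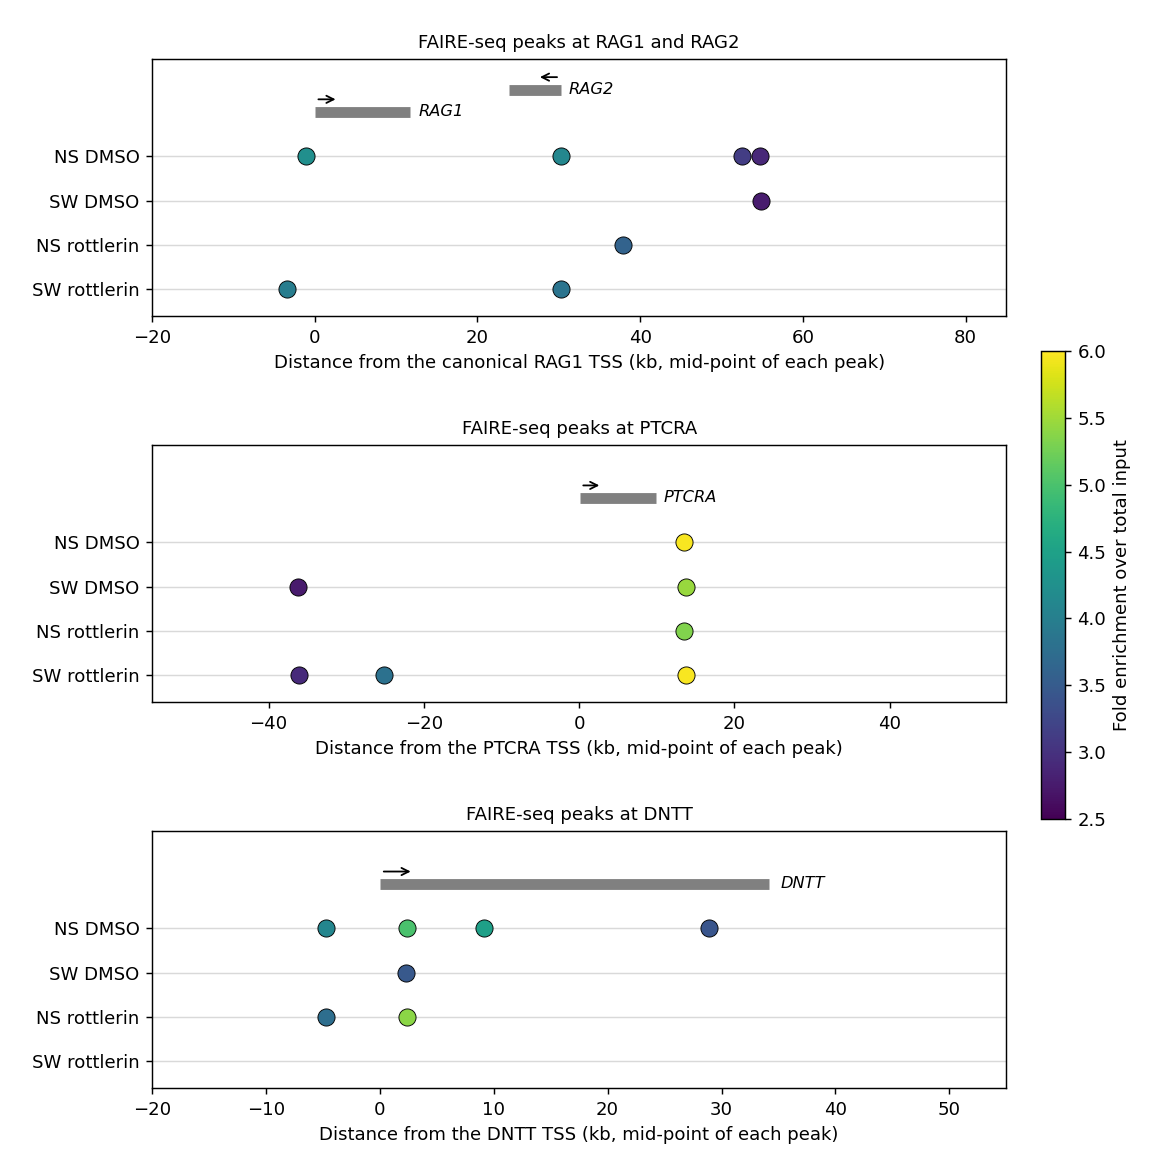
FAIRE-seq peaks at the RAG locus, PTCRA and DNTT, with the distance of each peak's mid-point from the TSS in kb on the x axis, 1 row for each list, canonical transcripts as grey bars with an arrow from the TSS, and the colour of each point giving the fold enrichment over total input. DNTT has 4 points in the NS DMSO row and 0 in the SW rottlerin row, PTCRA has none in its body, and only RAG2 has points at its own TSS.

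The 50 kb limit decided which regions were counted. Among regions counted through distance to the TSS of their gene, the farthest was the RPL7L1 start, 36.1 kb from PTCRA. Both RAG1 regions lay past the limit, 54.2 and 56.5 kb after the start of the RAG1 gene record, and were counted for RAG1 through the gene body. Just outside, the nearest region to PTCRA lay 63.6 kb away and had a peak in every list (6.41, 4.85, 5.94 and 6.38 in the NS DMSO, SW DMSO, NS rottlerin and SW rottlerin lists). The nearest to DNTT on its 3′ side lay 71 kb from the TSS and 36.9 kb past the gene end, at 98135093 to 98135289. It had peaks in the SW DMSO (3.64) and SW rottlerin (4.26) lists only. On the 5′ side of the RAG1 gene record, the nearest region lay 57.6 kb from the start of the record, with peaks in the NS DMSO (3.67), NS rottlerin (4.45) and SW rottlerin (5.15) lists.

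Where a region had a peak in both the NS DMSO list and another list, the fold enrichments could be set side by side as a ratio of the other list to NS DMSO. There were 8 such pairs, of which 6 were below 1 and 0 were at least 1.5-fold apart. The pairs are not separate regions. The CNPY3 start gave a pair with each of the other lists, and the DNTT intron region with SW DMSO and NS rottlerin. The share of all shared regions below 1 was not counted, so nothing is read from the 6. Over all shared regions, 3.85% were at least 1.5-fold apart in the SW DMSO list, 4.57% in the NS rottlerin list and 6.04% in the SW rottlerin list. The lowest ratio was 0.695 at the DNTT intron region in the SW DMSO list, a log2 ratio of -0.53, with 3.21% of 12550 shared regions lower. In the NS rottlerin list the ratio at the same region was 1.08. The ratio was 0.914 for NS rottlerin at the region before DNTT, 0.954 for SW DMSO at the farthest region before RAG2, and 0.934 for SW rottlerin at the RAG2 TSS. At the CNPY3 start it was 0.915, 0.895 and 1 for the SW DMSO, NS rottlerin and SW rottlerin lists. Over all shared regions the median ratio was 0.98, 1.04 and 1.06 in the same order, and the 5th to 95th percentiles were 0.727 to 1.33, 0.767 to 1.42 and 0.765 to 1.48. Of the 8 pairs, 7 lay within those ranges, and the DNTT intron region in the SW DMSO list lay below its range. All of these ratios share the NS DMSO values.

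**Figure D3:**
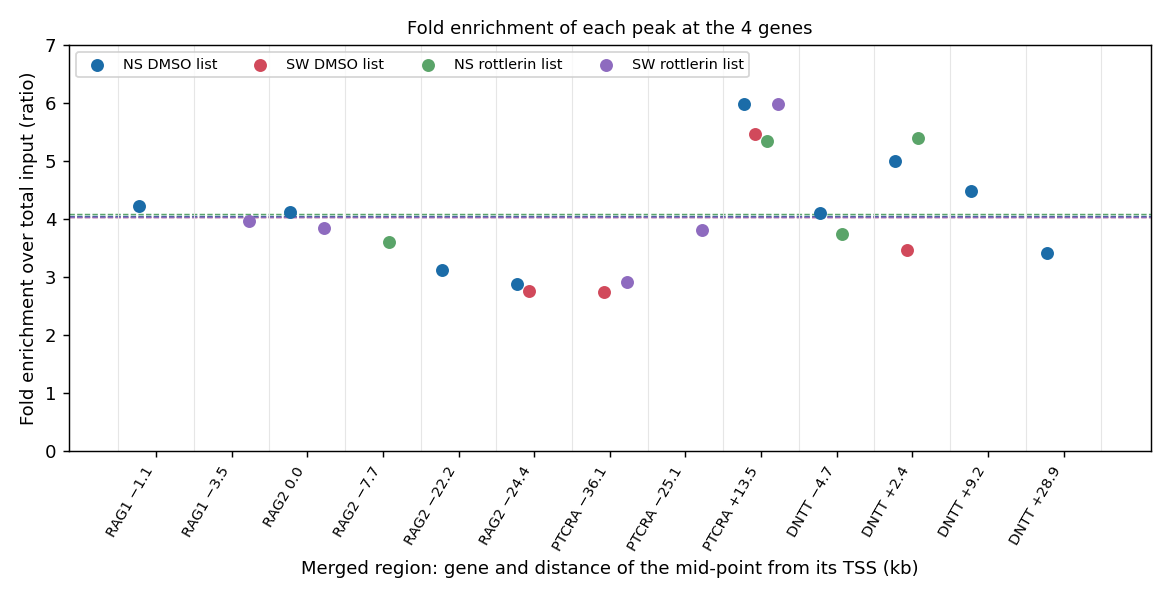
Fold enrichment over total input (ratio, linear axis from 0) of every peak at the 4 genes, by merged region along the x axis, which gives the gene and the distance from its TSS in kb (the canonical TSS for RAG1). Points are single libraries coloured by list, with no error to show, and dashed lines are the median of all peaks in each list (4.03 to 4.08). Only the CNPY3 start, 13.5 kb after the PTCRA TSS, has 4 points.

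Most member regions were of ordinary strength for their lists, but the SW DMSO member peaks had a median below that of their list. The median fold enrichment of the member peaks was 4.12 over 9 peaks in the NS DMSO list (4.05 over all its peaks) and 3.11 over 4 in SW DMSO (4.03). It was 4.54 over 4 in NS rottlerin (4.08) and 3.85 over 5 in SW rottlerin (4.03). The merged regions had a median width of 272 bp, from 161 to 1728 bp, and the median of all merged regions was 294 bp. The number of regions in the window was also compared with other protein-coding genes, of which 85.8% had at least 1 region and the median gene had 3. As many regions as RAG2 or more were found at 19.2% of genes, as DNTT at 40.7%, as PTCRA at 55.7% and as RAG1 at 71.2%. The RAG1 window is longer than the others (133 kb against 100 kb), since its gene record is 82.8 kb.

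The short sequences were counted over few regions at each gene. All 4 DNTT regions held an E-box (CAGCTG or CACCTG) in their central 300 bp, as did 2 of the 6 at the RAG locus and 0 of the 3 at the other genes' starts near PTCRA, and 34.3% of all merged regions held one. The RAG locus count is near that share. The DNTT windows are not all separate cases, since 2 of them resemble each other, as described below. CACCTG was found in 3 of the 13 regions (21.4% of all regions, 17.5% of the 250 bp before the start of 35116 RefSeq transcripts) and CAGCTG in 4 (17.1% and 14%). The RUNX sequence was found in 6 of the 13 (32.8% of regions, 11% of promoters), GATA in 4 (21% and 9.17%), ETS in 3 (42.2% and 28.7%), TCF7 and LEF1 in 3 (23.2% and 11.2%), and Ikaros and RBPJ in 2 (20.9% and 20.8%). AP1 was found in 1 (17.9% and 6.57%), NFAT in 1 (27.9% and 18%) and MYB in 0 (14.6% and 9%). Some of these letters overlap, as where a RUNX and an ETS match share a base in the DNTT intron region. The region 1.13 kb before the canonical RAG1 TSS, found in the NS DMSO list alone, held both E-boxes and a RUNX match, while the SW rottlerin region 3.47 kb before it held none of the 10 sequences. A match describes the letters only.

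The sequences before DNTT and in its intron also resembled each other. In a local alignment of both windows printed above, positions 8 to 64 of the first paired with 38 to 98 of the second on the same strand, with 47 of 61 columns identical (77%) and 4 gaps. Aligned on opposite strands, the score was 18 against 53. In each of them CAGCTG stands 12 bases before AGGAAG. Repeat annotation was not used here, so whether both windows hold copies of 1 repeat element was not tested. The GC content was 43.7% and 47% in these windows, and 70%, 61% and 52.3% at the starts of CNPY3, C6orf226 and RPL7L1, which also held 32, 23 and 11 CpG, where the median of all regions was 4. No window at the RAG locus or DNTT held more than 5 CpG.

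The starts of the genes of the wider pathway were examined in the same way, beside the 45% of protein-coding genes that had a region within 1 kb of the TSS and the 30.5% that had a TSS peak in every list. Among 10 genes of the end joining pathway that seals V(D)J breaks, 9 had a region within 1 kb of the TSS and 7 had a TSS peak in every list. XRCC5 had none at the start of its gene record but did at its canonical TSS. POLM, a polymerase related to DNTT, had the highest fold enrichment among them, with 8.74 in NS DMSO, 7.58 in SW DMSO, 7.57 in NS rottlerin and 8.07 in SW rottlerin. LIG4, the ligase of the pathway, had 4.53, 4.87, 4.59 and 4.54 in the same order. DCLRE1C, the nuclease Artemis that opens hairpin ends, had 4.24, 3.67, 3.24 and 3.54. NHEJ1 had no peak in the SW DMSO list, and POLL, another related polymerase, had peaks only in the SW DMSO (3.44) and NS rottlerin (4.16) lists. HMGB1 and HMGB2, DNA-bending proteins that aid the recombinase, had a TSS peak in every list, with HMGB1 at 6.46, 5.13, 5.58 and 5.7. Of the 4 genes RAG1, RAG2, PTCRA and DNTT, 1 had a region within 1 kb of its TSS, and 0 had a TSS peak in every list. With only 4 genes, the counts for RAG1, RAG2, PTCRA and DNTT are not far from the shares over all protein-coding genes, and nothing is read from them. The end joining counts, 9 and 7 of 10, lay above both shares, and that difference was not tested.

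Genes listed for immature thymocytes, the pre-B cell receptor and the Notch pathway were counted as well. Of all protein-coding genes, 45% had a TSS region, so that most genes lack one in any case. Of 6 surface proteins of immature thymocytes (CD1A, CD1B, CD1C, CD1E, CD34 and CD7), only CD1C had a TSS region. It had 2, with a highest fold enrichment of 3.19 in NS rottlerin and 2.97 in SW rottlerin. Of 5 genes of the pre-B cell receptor, the B lineage counterpart of the PTCRA complex, only IGLL1 had one, with 3.17 in NS DMSO, 3.82 in NS rottlerin and 4.18 in SW rottlerin. In the Notch pathway, which drives early T cell development and acts on PTCRA, NOTCH1 and HES1 had a TSS peak in every list and NOTCH3, HES4 and DTX1 had none. NOTCH1 had 3.22 in NS DMSO, 3.33 in SW DMSO, 4.29 in NS rottlerin and 4.03 in SW rottlerin, and HES1, a Notch target, had 3.36, 4.96, 4.77 and 5.33.

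**Figure D4:**
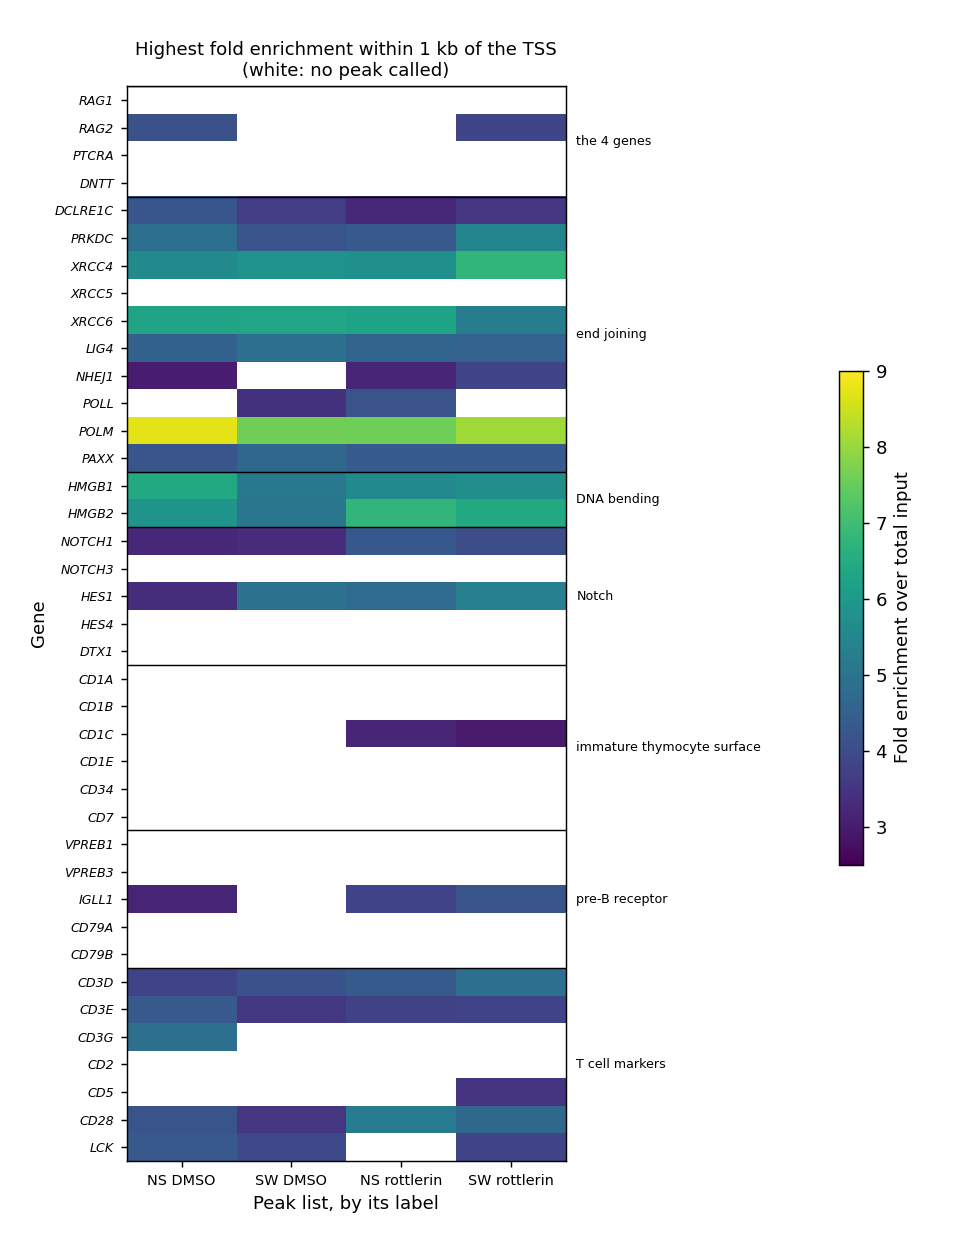
Highest fold enrichment of any peak within 1 kb of the TSS, as colour, for the 4 genes, their pathway lists and T cell markers (rows) in each list (columns), with white where no peak was called. RAG2 is the only one of the 4 genes with a coloured cell, in the NS DMSO and SW rottlerin columns, while 7 of the 10 end joining genes are coloured in every column.

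The protein-coding genes most like each of the 4 were sought as those with window peaks in the same lists and the smallest maximum difference in log2 of the highest fold enrichment. For DNTT, with NS DMSO, SW DMSO and NS rottlerin peaks, 59 other genes had the same lists, and the nearest were MAOB (difference 0.13) and DPY19L4 (0.24). For RAG1, with NS DMSO and SW rottlerin peaks, 144 genes had the same lists, and the nearest were KIF4A and PDZD11 (both 0.02), each with 1 region and the same values. RAG2 and PTCRA, with peaks of all 4 lists in their windows, were nearest to ARHGEF11 (0.03) and WT1 (0.11), and to MTPAP (0.03) and PKD2L1 (0.04), among 13274 and 13270 genes. These are likenesses of windows. All values used for PTCRA came from the CNPY3 start. For RAG2, the NS DMSO value (4.23) and the SW rottlerin value (3.97) came from the regions before the canonical RAG1 TSS.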

How the data were processed

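FAIRE-seq libraries were prepared from Jurkat cells, 9 samples with 1 library in each group. The study's methods and the submitters' processing notes name CutAdapt, Bowtie2 on hg19, Picard for duplicates and MACS2 with its broad setting, run per sample against total input; HTSeq is also named. Each peak deposited by the authors has a position, a score, a fold enrichment over total input (a ratio), and its p-value and q-value as −log10. Depth per sample is unknown from these lists, so no precision for a single peak can be given.

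From the lists, peaks that overlapped or touched were joined across lists, and of 40731 merged regions the 28 on other sequences than the autosomes and sex chromosomes were dropped. Genes were taken from GENCODE release 44 on GRCh37, with the TSS as the 5′ end of the gene record. No merged region ran past the end of its GRCh37 chromosome. Where a list had more than 1 peak in a region, the highest fold enrichment was used. Groups came from the sample labels. No test was run, since each group has 1 library. Motif letters were matched exactly on both strands of the central 300 bp, and 3 windows of all regions held unknown bases. Promoters were the 250 bases before the start in RefSeq on GRCh38.p14, used for shares only. Named genes were the 4 members, the pathway lists, genes whose body or start overlaps a member region, and for each member the 2 genes most alike by peak lists and fold enrichment. The members and lists were chosen with earlier results of these data known. Joining was tested on simulated data, where 2000 of 2000 regions were recovered with their lists. The simulated regions lay far apart, with a single peak from each list present, so this checks the code and not how close regions are joined. Alternatives were keeping touching peaks apart, the peak threshold, equal list lengths, the distance, the TSS, and leaving out each list except NS DMSO. The scripts ran in Python 3.11.15 with pandas 2.3.3, numpy 2.4.6, scipy 1.17.1 and, for plots, matplotlib 3.10.9.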

Additional observations from a re-analysis of the deposited data

How the results depend on the processing

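Regions were recounted at these genes and, for regions without an NS DMSO peak and regions in all 4 lists, over the whole series. Of 118 combinations of result and setting, 86 stayed within 1.5 times the value of the main setting. Keeping touching peaks apart, or only peaks with a q-value of 0.05 or less, moved none past that, although the second removed the weak region 22.2 kb before RAG2 and left 12 distinct regions. With only the higher-scoring 50% of each list, RAG1 had 1 region (0 without an NS DMSO peak), RAG2 1 (0), DNTT 2 and PTCRA 1 without an NS DMSO peak. Distinct regions were then 5, with 1 lacking an NS DMSO peak and 2 in that list alone, and over the whole series 10293 regions lacked an NS DMSO peak and 5760 were in all 4 lists. With the same number of highest-scoring peaks in every list (18998, all peaks of the NS DMSO list, including those off the autosomes, X and Y), 1 RAG2 region and 13450 of all regions lacked an NS DMSO peak, and 6 member regions were in the NS DMSO list alone, beside 13.3% of 32373 regions. Within 10 kb of the TSS, RAG2 had 2 regions (1 without an NS DMSO peak), PTCRA 0 (0), and 8 were distinct (2). Within 100 kb, RAG1 had 6 (3 without an NS DMSO peak), PTCRA 6, DNTT 1 without an NS DMSO peak, and 21 were distinct. With the canonical transcript, RAG1 had 4 (2). Leaving out a list was chosen after seeing the data. Without the SW rottlerin list, RAG1 had 1 region (0 without an NS DMSO peak), and the regions lacking an NS DMSO peak were 1 at RAG2, 1 at PTCRA and 2 distinct. Without the NS rottlerin list, 1 RAG2 region lacked an NS DMSO peak. These changes follow from the construction of each setting, which keeps fewer peaks, or takes a narrower, wider or shifted window. No paired analysis was possible because each group has 1 library. Unknown depth limits every statement on a missing peak.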
